A study of Mus musculus with 192 samples.

Results

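The expression of 7 genes that make long noncoding RNAs was followed through retinoic acid (RA) differentiation of mouse embryonic stem cells (mESCs), namely Neat1, Malat1 and Airn, listed as nuclear long noncoding RNAs (lncRNAs), and Gas5, Snhg1, Snhg3 and Snhg12, listed as host genes of small nucleolar RNAs (snoRNAs). They were listed by name, with earlier results of these data known, and they are 7 of the 39815 gene IDs in the tables of the fractionated RNA. All of the cells were wild-type E14 mESCs of strain 129/Ola, so every library comes from 1 established line and replicates are separate differentiation runs of it. Cells grown in 2i medium with leukaemia inhibitory factor were the 0 h group, and the other groups had spent 6, 12, 24, 36, 48, 72 or 96 h in N2B27 medium with 0.25 µM all-trans RA and without the inhibitors, so RA and the loss of 2i cannot be told apart. Nuclear and cytoplasmic RNA of the same lysates was sequenced at all 8 time points in runs 5, 6 and 7 (48 libraries), total RNA of unsorted cells in runs 1, 2 and 3 (14 libraries), and RNA of cells sorted at 96 h as extraembryonic endoderm-like (XEN, CD24-/PDGFRA+) or ectoderm-like (ECT, CD24+/PDGFRA-) in 1 library each. All libraries were made from poly(A) RNA, which matters here because most Malat1 ends in a triple helix and the long form of Neat1 likewise carries no poly(A) tail.

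Malat1 is an abundant RNA of nuclear speckles, the bodies that store splicing factors, and Neat1 is the scaffold of paraspeckles. Airn is transcribed antisense to Igf2r on the paternal chromosome, where it can silence Igf2r in cis. In some tissues only, it also silences the neighbouring transporter genes Slc22a2 and Slc22a3. Host genes such as Gas5 carry snoRNAs in their introns. The spliced intron is trimmed to the snoRNA, which guides methylation or pseudouridylation of ribosomal RNA, while the spliced exons make a lncRNA that is often translated briefly and degraded by nonsense-mediated decay. Several of these hosts are known to start with an oligopyrimidine tract, the 5' terminal oligopyrimidine (TOP) motif shared with ribosomal protein genes.

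On mm10, as annotated by GENCODE M21, Gas5 lies on the plus strand at chr1:161034422-161038539 with 10 annotated snoRNA entries inside it, Snhg1 on the plus strand at chr19:8723475-8726443 with 8, Snhg12 on the plus strand at chr4:132308623-132311024 with 5, and Snhg3 on the minus strand at chr4:132348014-132353686 with 2. Overlapping entries are counted separately, and each entry lies on the strand of its host. For the Snhg3 pair, Snora73a and Snora73b, no annotated exon covers the snoRNA. Snhg3 shares 13.7% of its 986 exon bases with Rcc1 on the same strand, so the counts of that gene are uncertain where the counting had to split reads. Neat1 (chr19:5824708-5845478, minus strand), Malat1 (chr19:5795690-5802672, minus strand) and Airn (chr17:12741311-12860136, plus strand) hold no annotated snoRNA. The annotated Airn gene spans 118826 bases but its 6 transcripts are 435 to 1375 bases long, and counts of the gene do not separate spliced from unspliced Airn.

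The start sites of the 4 hosts are shown because the oligopyrimidine tract is the sequence feature these genes are best known to share. Each sequence runs from 60 bases before the RefSeq start to 50 bases from it (GRCm38.p6), and capitals mark a pyrimidine tract, defined as a C followed by at least 4 bases that are C or T, with its C within 10 bases of the start.
Gas5 upstream start, chr1:161034541-161034650, plus strand: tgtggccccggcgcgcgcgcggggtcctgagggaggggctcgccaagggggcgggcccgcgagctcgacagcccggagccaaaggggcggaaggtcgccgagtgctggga
Gas5 downstream start, chr1:161035106-161035215, plus strand: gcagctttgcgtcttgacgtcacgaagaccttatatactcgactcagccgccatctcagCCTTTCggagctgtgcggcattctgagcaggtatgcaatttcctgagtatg
Snhg12, chr4:132308618-132308727, plus strand: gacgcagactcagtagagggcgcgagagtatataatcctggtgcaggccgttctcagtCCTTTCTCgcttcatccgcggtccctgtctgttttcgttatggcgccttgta
Snhg3, chr4:132353637-132353746, minus strand: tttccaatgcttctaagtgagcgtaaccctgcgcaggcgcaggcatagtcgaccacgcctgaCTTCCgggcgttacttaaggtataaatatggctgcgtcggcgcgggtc
Snhg1, chr19:8723427-8723536, plus strand: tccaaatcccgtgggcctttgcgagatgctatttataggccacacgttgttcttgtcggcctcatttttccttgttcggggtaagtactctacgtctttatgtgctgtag
The tract was found at the downstream start of Gas5, at Snhg12 and at Snhg3, and in 29.7% of the 32851 RefSeq promoters of the same length. It was not found by this definition at the upstream Gas5 start, Snhg1, Malat1 or Airn. In the whole window of 250 bases before to 50 after the start, TATA (its own reverse complement) was present in the downstream Gas5 window, Snhg12, Snhg3, Snhg1 and Airn, and in 36.7% of all promoters. TGACG or its reverse complement CGTCA, the core of a cyclic AMP response element, was present in the downstream Gas5 window, Snhg12 and Malat1 (20.8% of all promoters). AGGTCA or TGACCT, the hexamer bound by RA receptors and other nuclear receptors, was present in the Airn window (16.3%), and CACGTG, the E-box bound by Myc, in none of them (7.15%). These are matches of letters in a window, and the binding of a factor was not measured.

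The cytoplasmic libraries held 9119525 to 21652592 expected counts and the nuclear libraries 6860445 to 30624931, while the single-end total libraries held 29361894 to 36364112 and the paired-end ones 12653961 to 13692824. Levels are given as CPM, counts relative to the library total after TMM scaling, which compare a gene between libraries, and as TPM, the length-corrected transcript share estimated by RSEM, where genes are compared with each other. In the cytoplasm the summed level of 5 naive pluripotency genes went from between 5356 and 5390 CPM at 0 h to at most 224 CPM at 96 h (5 of 5 fell), that of 6 extraembryonic endoderm genes from 17.3 to 23.6 up to 2390 to 3294 CPM (6 of 6 rose), that of 5 ectoderm genes from 639 to 702 up to 803 to 819 CPM (4 of 5 rose and 1 fell), and that of 6 fibroblast genes from 3.94 to 4.89 up to 197 to 232 CPM (3 of 3 tested rose). The part of this change in cell makeup in the results for the 7 genes was not tested, and in bulk RNA a smaller share of expressing cells and less RNA per cell cannot be told apart.

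The snoRNA hosts declined in the cytoplasm. All 4 were lower at 96 h than at 0 h (edgeR's quasi-likelihood test, adjusted p under 0.05), where 34.4% of the 11675 genes tested fell. Gas5 was at 92.4, 65.1 and 58.7 CPM in runs 5, 6 and 7 at 0 h and at 25.9, 24.1 and 21.5 CPM at 96 h. The ranges are far apart and every run declined. The fold change was 3.13-fold lower (log2 -1.65 ± 0.16 SE, adjusted p = 6.45e-09). Snhg1, which carries Snord22 among others, was at 268, 205 and 173 CPM and then at 99, 103 and 89.2 CPM, again without overlap (2.30-fold lower, log2 -1.20 ± 0.12 SE, adjusted p = 1.31e-08). Snhg12 went from 60.9, 42.4 and 38.4 CPM to 24.2, 19.6 and 22.4 CPM (2.22-fold lower, log2 -1.15 ± 0.20 SE, adjusted p = 2.51e-05). Snhg3, the host of the U17 snoRNAs Snora73a and Snora73b, was the lowest of the hosts in CPM and the most uneven, at 10.2, 4.09 and 1.49 CPM at 0 h and at 1.91, 1.54 and 1.18 CPM at 96 h. Its ranges overlap and run 5 alone holds the high start. It passed the test with all runs (log2 -1.80 ± 0.69 SE, adjusted p = 0.0257) but not without run 5, run 6 or run 7 (adjusted p = 0.169, 0.0621 and 0.068).

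The decline of Gas5 and Snhg1 was already present at 6 h, when both fell by log2 values of 0.58 and 0.59 and 17.1% of genes fell. Gas5 stood at 46.8, 50.6 and 51.0 CPM in runs 5, 6 and 7, and Snhg1 at 149 and 155 CPM in runs 6 and 7 and lower than that in run 5, all below every 0 h library. The 6 h call of Gas5 was lost without run 6 (adjusted p = 0.0635) and with a spread shared by both fractions (adjusted p = 0.118). At 24 h all 4 hosts and Neat1 fell, 5 of the 6 members tested, beside 22.6% of all genes. The call of Snhg3 at 24 h was lost without run 5 (log2 -2.45 with all runs and -1.36 without it, adjusted p = 0.0935). Gas5 was at 43.9, 36.7 and 35.6 CPM at 24 h and at 33.5, 31.8 and 33.2 CPM at 48 h, lower in every run, a difference that was not tested. Snhg1 went from 133, 120 and 127 CPM at 24 h to 155, 148 and 166 CPM at 36 h and then to 96.4, 97.4 and 108 CPM at 72 h. Snhg12 had a like path, with 28.9, 25.2 and 31.5 CPM at 24 h, 36.3, 37.4 and 38.2 CPM at 36 h and 24.1, 17 and 23.5 CPM at 72 h, a difference between neighbouring time points that was not tested. With the run as a block, Snhg12 also passed the test at 6, 12 and 36 h (adjusted p = 0.0451, 0.0224 and 0.0465), where it had missed it without the block (0.145, 0.0857 and 0.109). Over all time points together, 5 of the 6 members tested changed, where 85.1% of all genes did. The exception was Snhg3 (adjusted p = 0.0515, and 0.0315 with the run as a block).

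In nuclear RNA, 3 of the 4 hosts fell by 96 h, beside 27.8% of the 11934 genes tested. Gas5 was at 105, 82.2 and 122 CPM at 0 h and at 27.6, 26.9 and 30.7 CPM at 96 h (3.63-fold lower, log2 -1.86 ± 0.31 SE, adjusted p = 1.97e-05). Snhg1 was at 347, 251 and 373 CPM and then at 88.6, 110 and 127 CPM (log2 -1.58 ± 0.26 SE, adjusted p = 1.31e-05), and Snhg12 at 83.4, 63 and 93 CPM and then at 23.8, 22.0 and 29.9 CPM (log2 -1.66 ± 0.23 SE, adjusted p = 1.98e-06). None of these ranges overlap, and the calls held without any 1 run. Nuclear Snhg3 was at 7.07, 2.01 and 5.93 CPM at 0 h and 1.43, 1.49 and 2.95 CPM at 96 h, with overlapping ranges and no call (log2 -1.35 ± 0.78 SE, adjusted p = 0.148).

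The nuclear path was less even than the cytoplasmic one. At 6 h Snhg1 and Snhg12 fell (9.61% of genes fell), and at 12 h 5 of 7 members did, namely Gas5, Snhg1, Snhg12, Neat1 and Malat1, beside 12.4% of all genes. Snhg1 was at 139, 148 and 192 CPM at 12 h. At 24 h, when 14.4% of genes fell, run 6 stood above the others, with Gas5 at 94.7 CPM against 53.1 and 49.0 CPM in runs 5 and 7, and Neat1, Snhg1 and Snhg12 fell. At 36 h, with 19.4% of genes lower, the 5 members of 12 h were called again. At 48 h run 7 stood apart, with Gas5 at 90.3 CPM against 35.8 and 46.7 CPM and Snhg1 at 264 CPM against 107 and 149 CPM. Without run 5, nuclear Snhg1 lost its calls at 6, 24, 36 and 48 h (adjusted p = 0.297, 0.109, 0.0926 and 0.105) and Snhg12 its calls at 6, 12, 24, 36 and 48 h (adjusted p = 0.245, 0.0527, 0.243, 0.212 and 0.0632). Without run 6, nuclear Snhg1 lost its calls at 6, 12 and 48 h (adjusted p = 0.201, 0.0512 and 0.0501), and without run 7 Snhg12 lost those at 24 and 36 h (0.0952 and 0.0843). The 12 h call of Gas5 was lost without run 5 or run 6 (adjusted p = 0.073 and 0.0715). Over all time points 6 of 7 members changed in nuclear RNA, where 74.2% of all genes did, and Snhg3 was again the exception (adjusted p = 0.418).

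**Figure D1:**
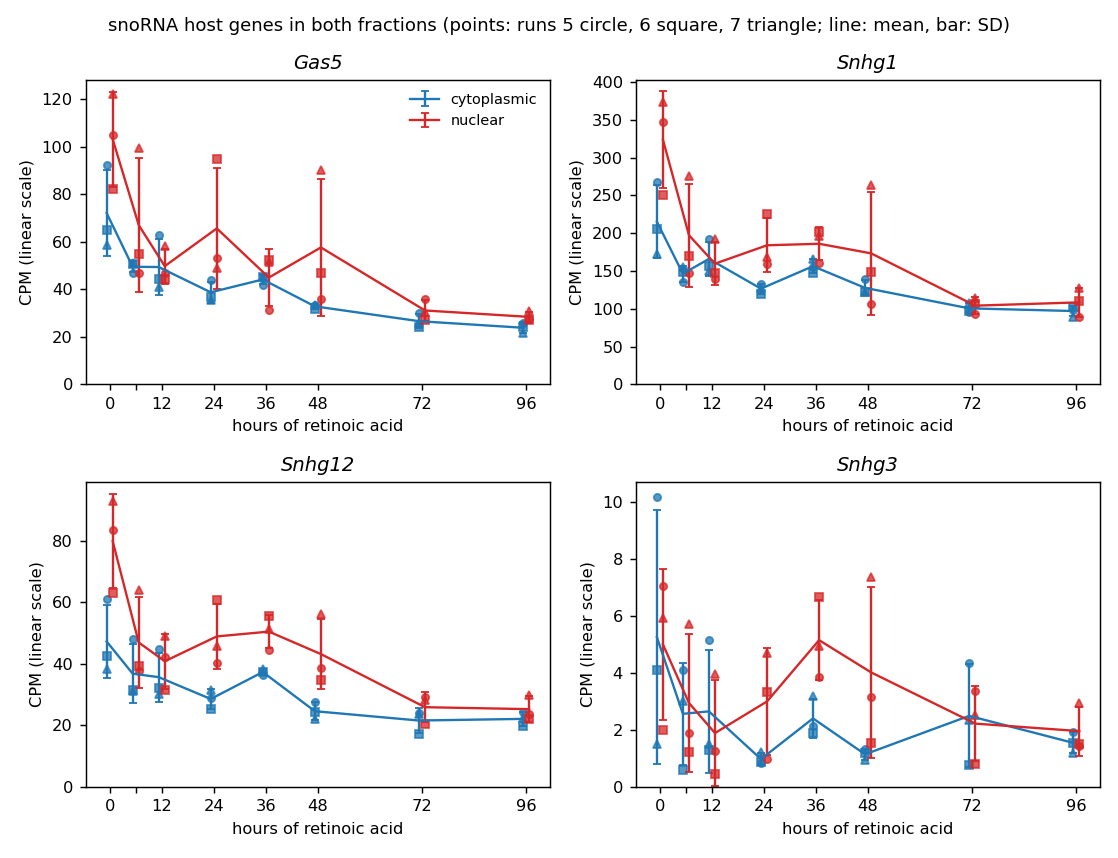
CPM (linear axis from 0) of Gas5, Snhg1, Snhg12 and Snhg3 against hours of RA, with 1 point for each library of runs 5, 6 and 7 and lines through the means of the cytoplasmic and the nuclear libraries with bars of 1 SD. Gas5, Snhg1 and Snhg12 ended below every 0 h library in both fractions, while the points of Snhg3 lie between 0.432 and 10.2 CPM with wide spread at most times.

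The size of the decline depended on the scale, as TPM are corrected for length and were not scaled by TMM. The deposited effective length of a gene is the abundance-weighted length of its transcripts, so it changes when the mix of transcripts changes. For Snhg1 in the cytoplasm it was 825, 702 and 640 bases at 0 h and 500, 427 and 480 bases at 96 h, and in the nucleus it was 1010, 821 and 911 bases and then 565, 453 and 601 bases. The ranges do not overlap in either fraction, while the median effective length over all genes was 2053 to 2098 bases in the cytoplasmic libraries at 0 h and 2078 to 2105 bases at 96 h. On the TPM scale, a choice added after seeing the data, cytoplasmic Snhg1 was at 330 ± 41.9 TPM (SD, n = 3) at 0 h and 280 ± 44.2 TPM at 96 h with overlapping ranges, a mean log2 change of -0.24 ± 0.27 (SD over runs). In the nucleus the ranges of Snhg1 stayed apart on that scale (-0.67 ± 0.49). Gas5 kept a mean log2 TPM change of -1.04 ± 0.52 in cytoplasmic and -1.17 ± 0.37 in nuclear RNA, and Snhg12 of -0.65 ± 0.29 and -1.05 ± 0.35. The median log2 TPM change over all genes was 0.27 in cytoplasmic and 0.13 in nuclear RNA. The mean cytoplasmic effective length of Gas5 was 748 bases at 0 h and 631 at 96 h. That of Snhg12 was 538 and 483 bases. How much of the smaller declines in TPM comes from length and how much from scaling was not tested. Nuclear Gas5 also shortened, from a mean of 832 to 571 bases without overlap, and nuclear Snhg12 was at a mean of 671 and then 492 bases with overlapping ranges. Whether the shorter Snhg1 products are other splice forms, or reads assigned to other transcripts of the same gene, was not tested.

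Other genes that carry snoRNAs went the same way more often than not by 96 h, when 34.4% of all genes tested fell in the cytoplasm and 27.8% in the nucleus. Of 16 other noncoding hosts, 8 were tested in the fractions. In the cytoplasm at 96 h 6 of them fell and 1 rose, with a median log2 change of -1.13 against -0.02 over all genes, and in the nucleus 6 fell (median -1.01). Zfas1, which carries Snord12 snoRNAs, fell by 1.69 on the log2 scale in the cytoplasm (adjusted p = 6.98e-06) and by 2.24 in the nucleus (adjusted p = 1.4e-06), and Snhg20 by 1.32 and 1.47. Snhg11 was the one that rose in the cytoplasm (log2 0.36 ± 0.10 SE, adjusted p = 0.00398). Among 18 protein-coding hosts tested, which are mostly ribosomal proteins and translation or nucleolar factors, 17 fell in the cytoplasm (median -0.73) and 8 in the nucleus (median -0.47). Eif4a2, a helicase of translation initiation, fell by 1.24 in cytoplasmic and 1.57 in nuclear RNA, and Nop56, a core protein of box C/D snoRNA particles, by 0.76 and 0.79. Of the 6 snoRNA particle proteins tested, 4 fell in the cytoplasm and 3 in the nucleus, among them Nop58 (log2 -0.43 and -0.32) and Nhp2 (log2 -0.66 and -0.56). Nop56 and Nop58 are counted among the protein-coding hosts too, so the 2 counts are not separate. Of 5 factors of nonsense-mediated decay, 2 fell in the cytoplasm, Upf2 (by 0.68) among them, a share near that of all genes, and 3 in the nucleus. Genes that neighbour the members had no common direction. Zbtb37, next to Gas5, rose in the cytoplasm by 96 h (log2 0.60 ± 0.13 SE, adjusted p = 0.000363), Rcc1, next to Snhg3, rose slightly (log2 0.23 ± 0.06 SE), and Slc3a2, next to Snhg1, and Trnau1ap, near Snhg3 and Snhg12, were at log2 -0.04 and -0.01 without passing the test.

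Neat1 dipped and came back. In the cytoplasm it was at 95, 79 and 84 CPM at 0 h and higher in every run at 6 h (165, 110 and 99.6 CPM), then at 41.8, 37.2 and 37.0 CPM at 24 h and at 110, 80.3 and 115 CPM at 96 h. The 24 h libraries lie below all others and the 96 h range overlaps that of 0 h. The fall at 24 h was 2.29-fold (log2 -1.19 ± 0.19 SE, adjusted p = 2.82e-05) and held without any 1 run, while at 96 h the log2 change was 0.18 ± 0.19 SE (adjusted p = 0.404). The rise at 6 h passed the test with all runs (log2 0.51 ± 0.19 SE, adjusted p = 0.0388), where 16.2% of genes rose and Neat1 and Malat1 were the 2 members that did, but was lost without run 5, 6 or 7 (adjusted p = 0.064, 0.153 and 0.0886). Nuclear Neat1 was at 177, 155 and 214 CPM at 0 h, at 90.6, 96.3 and 78.5 CPM at 12 h, at 78.4, 109 and 46.4 CPM at 24 h and at 182, 160 and 189 CPM at 96 h. It fell at 12, 24 and 36 h (log2 -1.06, -1.23 and -1.11, adjusted p = 0.00295, 0.000579 and 0.00114), and at 96 h its log2 change of -0.04 ± 0.25 SE did not pass the test (adjusted p = 0.898). On the TPM scale cytoplasmic Neat1 ended above its 0 h range (mean log2 change 0.53 ± 0.23), beside a median change of 0.27 over all genes. Its mean effective length was 3190 bases at 0 h and 3115 at 96 h. The end level of Neat1 thus depends on the scale, and TPM were not scaled by TMM.

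Malat1 was higher in the cytoplasm and lower in the nucleus than at 0 h in every run at 6 and 12 h. In the cytoplasm it went from 317, 378 and 371 CPM at 0 h to 414, 547 and 544 CPM at 6 h and was at 326, 310 and 424 CPM at 36 h. In the nucleus it went from 666, 585 and 768 CPM to 475, 506 and 552 CPM at 6 h and 327, 346 and 334 CPM at 36 h. The cytoplasmic rise at 6 h passed the test (log2 0.46 ± 0.15 SE, adjusted p = 0.0243), though not without run 6 or run 7 (adjusted p = 0.19 and 0.12). The nuclear falls at 12 h (log2 -0.77 ± 0.27 SE, adjusted p = 0.0412) and 36 h (log2 -1.0 ± 0.27 SE, adjusted p = 0.0049) passed it too, the first not without run 5 or run 6 (adjusted p = 0.215 and 0.154) and the second not without run 5 (adjusted p = 0.0553). By 96 h Malat1 had risen in the cytoplasm to 502, 526 and 531 CPM, above every 0 h library (1.41-fold, log2 0.50 ± 0.15 SE, adjusted p = 0.00721), where 33.3% of genes rose. It was the only member called higher there, and the call was lost without run 6 (adjusted p = 0.0569). Nuclear Malat1 at 96 h, at 590, 670 and 731 CPM, overlapped its 0 h range (log2 -0.02 ± 0.27 SE, adjusted p = 0.951). The path after 36 h was uneven in the nucleus, with 436, 585 and 1029 CPM at 48 h and 838, 834 and 444 CPM at 72 h in runs 5, 6 and 7.

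**Figure D2:**
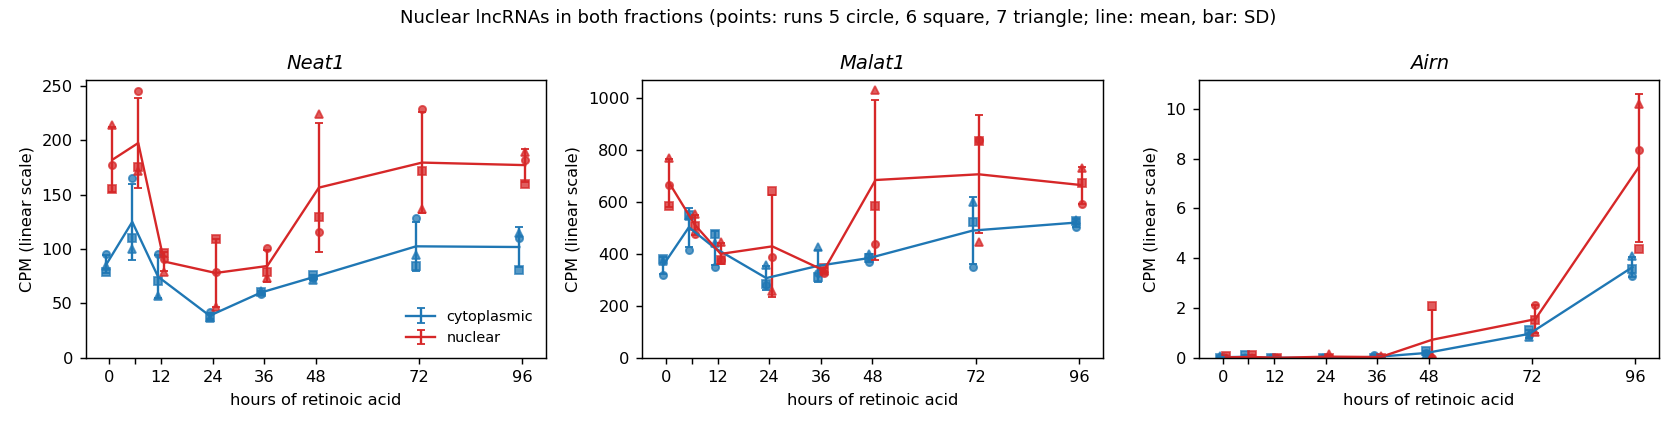
CPM (linear axis from 0) of Neat1, Malat1 and Airn against hours of RA, with 1 point for each library of runs 5, 6 and 7 and lines through the means of each fraction with bars of 1 SD. Neat1 was lowest at 24 h in the cytoplasm, where its 3 libraries lie between 37.0 and 41.8 CPM, and Airn was near 0 until 36 h and reached 4.38 to 10.2 CPM in the nucleus at 96 h.

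Other nuclear lncRNAs moved in both directions. Of 8 tested, 4 rose in the cytoplasm at 6 h, beside 16.2% of all genes, among them Mirg (log2 0.70) and Meg3 (0.39), and 3 fell at 24 h, beside 22.6%, namely Meg3 (log2 -0.94), Rian (-0.65) and Tug1 (-0.43). In the nucleus 3 fell at 24 h, beside 14.4%, Mirg (-0.83), Meg3 (-0.95) and Rian (-0.92). Meg3, Rian and Mirg are neighbouring noncoding genes of 1 imprinted cluster. Miat, a lncRNA of neural and other tissues, rose at 24 h and at 96 h (log2 3.10 and 5.92 in the cytoplasm). The messages of proteins that bind these RNAs did not follow 1 direction. Of 8 paraspeckle protein genes, 4 rose in the cytoplasm at 6 h, namely Pspc1 (log2 0.37), Sfpq (0.23), Rbm14 (0.37) and Matr3 (0.24). At 24 h Hnrnph3 was the only one that rose (0.77 in the cytoplasm, 0.83 in the nucleus), and none fell. Of all genes, 21.2% rose in the cytoplasm and 15.1% in the nucleus at that time. At 96 h Hnrnph3 (1.11) and Cpsf6 (0.32) had risen in the cytoplasm and Pspc1 (-0.34) and Rbm14 (-0.39) had fallen. Of all genes, 33.3% rose and 34.4% fell there at 96 h. Of 7 nuclear speckle protein genes, Son rose (log2 0.36) and 4 fell in the cytoplasm at 96 h, Srsf2 (-0.36), Srrm1 (-0.30) and Srsf5 (-0.43) among them. In the nucleus 3 fell, beside 27.8% of all genes. Frmd8, which lies beside Neat1, fell slightly in the cytoplasm (log2 -0.29 ± 0.12 SE, adjusted p = 0.0439).

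Airn appeared late. From 0 to 36 h no fraction library held more than 2 Airn counts. In the cytoplasm it was at 0.204, 0.27 and 0.103 CPM at 48 h, at 0.922, 1.13 and 0.832 CPM at 72 h and at 3.29, 3.57 and 4.07 CPM at 96 h, so that from 48 h every library lies above every 0 h library. At 48 h these were only 2, 3 and 1 counts. Their ratio to 0 h of 7.36 had a 95% interval of 0.893 to 339, for counting error only. The run 6 library at 6 h (0.117 CPM) lay above the lowest at 48 h. In the nucleus it was at 2.12, 1.51 and 1.02 CPM at 72 h and at 8.35, 4.38 and 10.2 CPM at 96 h. The 96 h libraries together held 139 counts in the cytoplasm and 262 in the nucleus against 1 count at 0 h in each. In CPM, the nuclear ratio was 325 (95% interval 57.8 to 12891) and the cytoplasmic one, 3.6 against 0.0266 CPM over the pooled libraries, had an interval of 23.9 to 5377, intervals that cover counting error only. Airn was the only member that rose in nuclear RNA by 96 h (adjusted p = 9.04e-05), where 27.7% of genes rose. In the cytoplasm its mean count was under the filter of 10, and it was not tested. At 48 h the nuclear call (adjusted p = 0.0163) rested on run 6, which held 19 of the 20 counts, and was lost without it (adjusted p = 0.427). Igf2r, the protein-coding gene that Airn overlaps, fell in both fractions at 6 h (log2 -0.81 ± 0.09 SE and -0.70 ± 0.12 SE) and 24 h (-0.73 and -0.79). Airn was near 0 in the fractions at those times. At 96 h Igf2r was at -0.11 ± 0.09 SE and -0.22 ± 0.12 SE (adjusted p = 0.283 and 0.138). The library preparation and alignment kept the strand, so these reads are assigned to the 2 genes separately.

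As a mean over time, most members were more abundant in the nuclear than in the cytoplasmic libraries of the same lysates. The ratio compares CPM within each library, so it is relative to the other genes of that fraction and not a share of molecules in the cell. As the mean over the 8 time points, 5 of 7 members were higher in the nucleus, where 13.9% of the 11817 genes tested were. Neat1 had the largest difference (log2 0.77 ± 0.08 SE, adjusted p = 6.52e-09), followed by Snhg12 (0.47), Gas5 (0.38 ± 0.09 SE, adjusted p = 0.00114), Malat1 (0.37 ± 0.08 SE, adjusted p = 0.000627) and Snhg1 (0.30, adjusted p = 0.00157). Snhg3 was at 0.55 (adjusted p = 0.117), and Airn had too few counts at the early times for a mean to be estimated. The differences of Gas5 and Snhg1 were lost without run 7 (adjusted p = 0.106 and 0.133) and that of Snhg1 also without run 6 (adjusted p = 0.0666).

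By single time points, Neat1 (log2 1.08 ± 0.23 SE, adjusted p = 0.00476), Malat1 (0.92 ± 0.24 SE, adjusted p = 0.0191) and Snhg12 (0.76, adjusted p = 0.0385) were higher in the nucleus at 0 h, beside 2.33% of all genes. At 48 h Neat1 (1.09 ± 0.24 SE, adjusted p = 0.00242), Malat1 (0.83), Gas5 (0.82) and Snhg12 (0.82) were, beside 4.67%. With the lysate as a block, Snhg12 missed the threshold at 0 h (adjusted p = 0.0541) and Malat1 and Gas5 at 48 h (adjusted p = 0.0763 and 0.0777). These calls also rested on single runs. Without run 6 the 0 h calls of Neat1, Malat1 and Snhg12 were lost (adjusted p = 0.155, 0.199 and 0.228), without run 5 those of Malat1 and Snhg12 (0.161 and 0.0718) and without run 7 that of Snhg12 (0.363). Without run 7 all 4 calls at 48 h were lost (Neat1 0.0972, Malat1 0.236, Gas5 0.571 and Snhg12 0.349), and without run 6 those of Malat1, Gas5 and Snhg12 (0.114, 0.155 and 0.0506). At 6, 12, 24, 36, 72 and 96 h no member passed edgeR's test, and the shares of all genes called higher were 0.00846%, 0%, 0%, 0%, 0.212% and 0.0762%. At those times 817 to 1657 genes had an unadjusted p under 0.05, and DESeq2 also called Neat1 at 24 and 96 h (adjusted p = 0.021 and 0.0433). Without run 7, edgeR called Neat1 (adjusted p = 0.00689 and 0.033) and Malat1 (0.0191 and 0.00882) at 24 and 72 h. With no filter on low counts it called Neat1 at 6, 24, 36, 72 and 96 h. That fit also called Malat1 at 24 and 72 h and Gas5, Snhg1 and Snhg12 at 24 h. Nuclear minus cytoplasmic Neat1 was at log2 1.01 ± 0.24 SE at 24 h and 0.80 ± 0.23 SE at 96 h in edgeR's fit (adjusted p = 0.0819 and 0.0889).

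The difference was not the same in every lysate. Leaving out Airn and Snhg3 for low counts, all 5 remaining members were higher in the nucleus in 13 of the 24 pairs of libraries from 1 lysate, at least 4 in 21 pairs, and at least 1 in every pair. Neat1 was higher in 23 pairs (median ratio of CPM 1.67, 0.945 to 3.12), Gas5 and Snhg12 in 20 each (medians 1.16 and 1.35), Snhg1 in 19 (1.19) and Malat1 in 18 (1.18, 0.715 to 2.59). The median ratio of these 5 members was 2.16 in run 7 at 0 h, 1.77 in run 7 at 6 h, 2.41 in run 6 at 24 h and 2.59 in run 7 at 48 h, and between 0.94 and 1.49 in all other pairs. Malat1 parted from the other 4 in some lysates, with a ratio of 1.01 in run 7 at 6 h, where the others were at 1.72 to 2.05, and of 2.41 in run 5 at 72 h, where Snhg1 was at 0.96. In the 4 lysates of high median the median log2 ratio of 8 other nuclear lncRNAs was 1.01, 0.33, 0.85 and 1.34 and that of 8 other noncoding hosts 1.18, 0.96, 0.74 and 1.44. It was 0.09, 0.18, -0.28 and -0.03 for 18 protein-coding hosts and between -0.04 and 0.00 over all genes. How the yield or purity of each fraction bears on these 4 lysates was not tested. As the mean over time points, 13.9% of all genes were higher in the nucleus and 17.1% lower. Higher were 7 of 8 other noncoding hosts (Snhg17 by log2 0.54, Snhg20 by 0.66) and 6 of 8 other nuclear lncRNAs (Meg3 by 0.67, Miat by 0.78). Among 18 protein-coding hosts, 4 were higher and 2 others lower (Ncl by log2 -0.25).

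No member passed the test of a different change over time in the 2 fractions when genes of low mean count were left out. At 96 h against 0 h edgeR called 0 genes (0% of those tested) although 799 had an unadjusted p under 0.05, and DESeq2 called 4 genes, none of them a member. Over all 7 time points 12 genes were called (0.102%) and 700 had an unadjusted p under 0.05. With no filter on low counts, edgeR's test over all 7 time points called Neat1, Malat1, Gas5 and Snhg1 (adjusted p = 0.000569, 1.59e-12, 0.0334 and 0.016). For Neat1 the change by 96 h differed between the fractions by log2 -0.28 ± 0.33 SE, for Malat1 by -0.57 ± 0.33 SE and for Gas5 by -0.27 ± 0.36 SE, so differences of these sizes could not be resolved. The opposite movement of Malat1 at 6 h and 12 h missed the threshold as well (log2 -0.90 ± 0.33 SE, adjusted p = 0.769, and -1.0 ± 0.33 SE, adjusted p = 0.503).

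**Figure D3:**
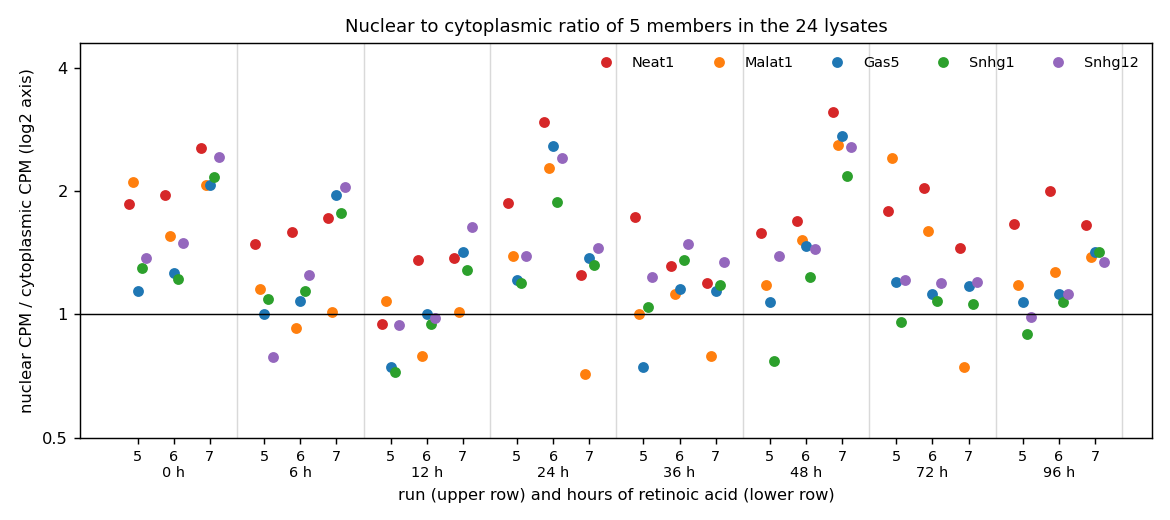
Nuclear to cytoplasmic ratio of CPM (log axis) for Neat1, Malat1, Gas5, Snhg1 and Snhg12 in the 24 pairs of libraries from 1 lysate, ordered by hours of RA with the run number above the hour. The pairs of run 7 at 0 h, run 6 at 24 h and run 7 at 48 h stand above the rest for Neat1, Gas5, Snhg1 and Snhg12, with medians over the 5 genes of 2.16, 2.41 and 2.59, while Malat1 was also high in run 5 at 0 h (2.1) and 72 h (2.41).

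Total RNA gave another view of the change by 96 h, from runs 1 and 2, which are not among the fractionated runs. Of the 6 members listed in those tables (Snhg1 was not listed), Airn rose, beside 16.3% of the 15851 genes tested, and Gas5 and Snhg3 fell, beside 13.2%. Airn was at 0.14 and 0.102 CPM in runs 1 and 2 at 0 h and at 3.25 and 1.80 CPM at 96 h, 163 counts against 7 and a ratio of 20.3 (95% interval 9.62 to 51.3, counting error only). In the single-end libraries of 6, 24, 36, 48 and 72 h Airn was at 0.068, 0.323, 0.376, 0.363 and 1.35 CPM (2, 12, 13, 14 and 49 counts). It was thus above both 0 h libraries from 24 h on there. Run 3 held 0 Airn counts at 24 h, 1 at 36 h and 4 at 48 h. The titles of the single-end libraries of 6 to 72 h give no replicate number. They were taken as run 1, so a course within 1 run is not established. Its log2 change was 4.34 ± 0.72 SE (adjusted p = 0.0106). Gas5 went from 59.3 and 45.9 CPM to 28.5 and 28.6 CPM (log2 -0.88 ± 0.25 SE, adjusted p = 0.048), a call lost when any 1 of the 4 libraries was left out (adjusted p = 0.0516 to 0.211). Snhg3 went from 14.5 and 8.61 CPM to 4.25 and 3.68 CPM without overlap (log2 -1.54, adjusted p = 0.0428), and that call was lost without the run 1 library at 0 h (adjusted p = 0.17) or either 96 h library (0.146 and 0.183). Neat1 was higher in both runs, at 2.13 and 1.74 CPM and then at 4.62 and 5.62 CPM (log2 1.41, adjusted p = 0.0652, and 0.0425 with the run as a block). The single-end library of 6 h had Neat1 at 1.22 CPM, below both 0 h libraries, while cytoplasmic Neat1 was higher at 6 h. That difference was not tested. Malat1 differed more between the runs than between the times, at 8.74 and 22.5 CPM at 0 h and 10.3 and 45.1 CPM at 96 h (adjusted p = 0.45). Snhg12 was at 3.74 and 8.24 CPM and then at 2.28 and 5.18 CPM (adjusted p = 0.445). Igf2r and Slc22a3 both rose here (log2 1.85 ± 0.23 SE, adjusted p = 0.00498, and 3.72 ± 0.83 SE, adjusted p = 0.0233). These runs are other than those of the fractions, and the difference from the fractions was not tested. Whether Airn silences either gene in these cells was not tested.

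Run 3, sequenced from both ends and up to 48 h, showed the early part of the course in total RNA with 1 library a time point and no test. At 0, 12, 24, 36 and 48 h Gas5 was at 40.6, 30.8, 21.1, 17.7 and 12.7 CPM and Snhg1 at 167, 132, 99.5, 81.6 and 65.7 CPM, lower at each later time. Snhg12 was at 46.1, 47.1, 34.1, 23 and 14.2 CPM, so it was not lower at 12 h. Snhg3 was at 7.22, 6.43, 9.92, 8.32 and 4.94 CPM, higher at 24 and 36 h than at 0 h. Neat1 was at 93.1, 20.2, 23.1, 50.4 and 77.4 CPM, so that it was lowest at 12 h and higher again by 48 h. Malat1 had a like course, at 856, 334, 175 and 444 CPM at 0, 12, 36 and 48 h and below all of these at 24 h. The level of these RNAs differed between the runs by far more than over time. At 0 h Malat1 was at 856 CPM in run 3 against 8.74 and 22.5 CPM in runs 1 and 2, Neat1 at 93.1 against 2.13 and 1.74 CPM and Snhg12 at 46.1 against 3.74 and 8.24 CPM, while Gas5 (40.6 against 59.3 and 45.9 CPM) and Snhg3 (7.22 against 14.5 and 8.61 CPM) were much closer. Runs 1 and 2 were sequenced as single ends and aligned with Bowtie2, and run 3 was sequenced from both ends and aligned with STAR, so run, sequencing and alignment cannot be told apart. The run 1 libraries at 36 h and 48 h were nearly equal (median difference 1.19 times the counting noise, against 10.4 or more in the other neighbouring pairs of total libraries) and stayed out of the test.

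**Figure D4:**
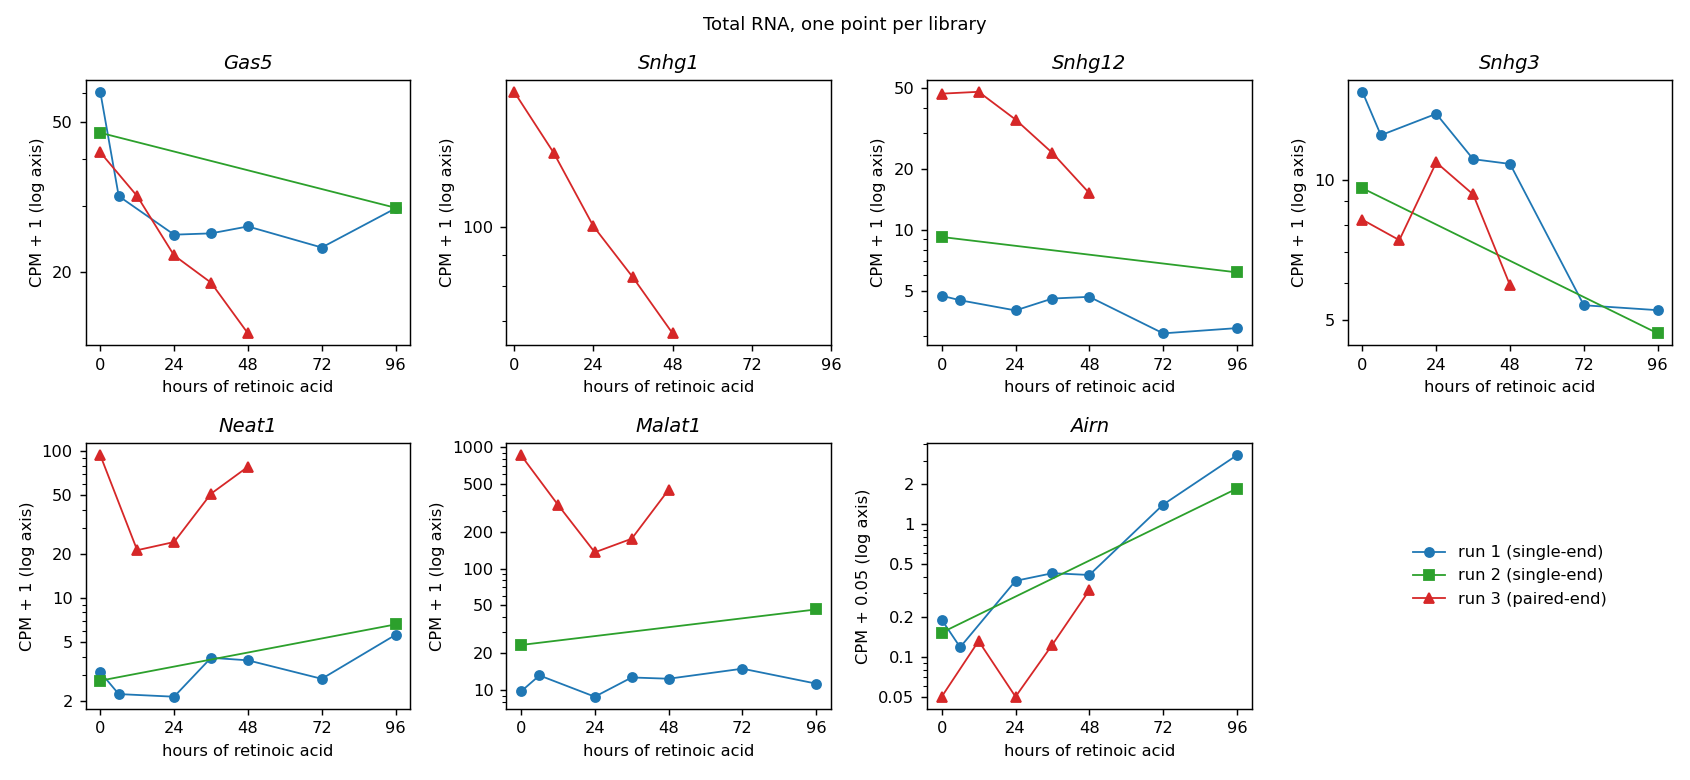
Total RNA against hours of RA, 1 panel per member on a log axis of CPM plus 1 (CPM plus 0.05 for Airn), with runs 1, 2 and 3 drawn as separate points and lines. Airn is higher at 96 h than at 0 h in both runs that reach 96 h (3.25 and 1.80 CPM against 0.14 and 0.102 CPM), and Malat1, Neat1 and Snhg12 lie far higher in run 3.

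The sorted cells at 96 h had 1 library a population, so their values have no replicate check. The titles and sort protocol say that XEN cells were CD24-/PDGFRA+ and ECT cells CD24+/PDGFRA-, and the sort field of the labels has the markers the other way round. The data go with the titles, with Cd24a at 22.1 CPM in XEN and 656 CPM in ECT, and Pdgfra at 792 and 208 CPM. The ECT library also held 2114 CPM of the 6 endoderm markers (4851 CPM in XEN) and 235 CPM of the 7 fibroblast genes (2.55 CPM in XEN), 207 CPM of them Acta2. Malat1 was the only member past 2-fold, at 9.21 CPM in XEN (95% interval 8.04 to 10.5) and 29.3 CPM in ECT (27.6 to 31.1), 3.18-fold higher in ECT, where 21.1% of the 15150 genes compared were higher in ECT past 2-fold and 7.06% higher in XEN. The fold was 3.99 without TMM scaling and 5.16 in TPM. Unsorted cells of runs 1 and 2 at 96 h differed in Malat1 by more than that (10.3 and 45.1 CPM). Gas5 was at 33.3 CPM in XEN and 24.2 CPM in ECT (1.38-fold), Neat1 at 4.6 and 3.65 CPM, Snhg3 at 4.03 and 3.70 CPM and Snhg12 at 2.06 and 1.88 CPM. Airn was at 2.63 CPM in XEN (2.03 to 3.36) and 3.70 CPM in ECT (3.12 to 4.36), both far above the 0.102 to 0.14 CPM of total RNA at 0 h. Which cells in each library expressed it was not tested. Slc22a3 was at 0.0411 CPM in XEN, where it had 1 count, and 2.08 CPM in ECT, and Igf2r at 124 and 167 CPM.

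**Figure D5:**
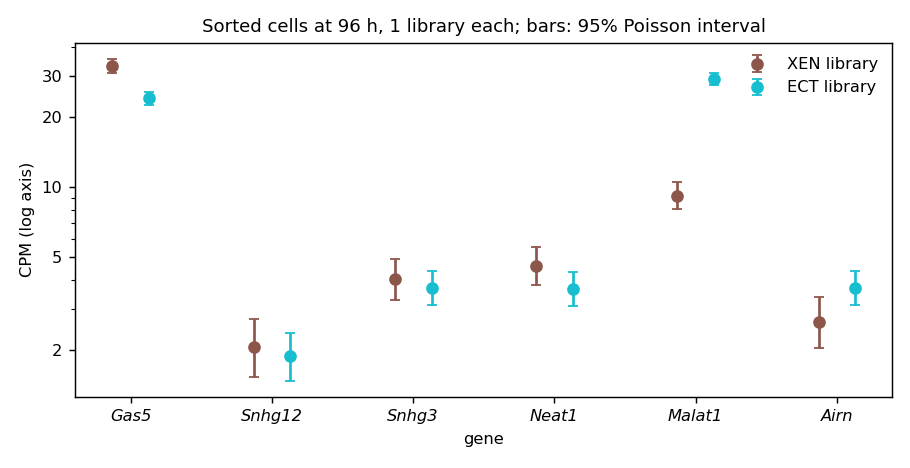
CPM (log axis) of the 6 members listed in the tables of the sorted libraries at 96 h, with a point for the XEN library and a point for the ECT library of each gene and bars for the 95% Poisson intervals of the counts. Malat1 is 3.18-fold higher in ECT, and the points of the other 5 members lie within 2-fold of each other.

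Per length, Snhg1 had the highest mean of the members at 0 h in both fractions, and Malat1 had reached its range by 96 h. In the cytoplasm at 0 h the order was Snhg1 (330 ± 41.9 TPM, SD, n = 3), Malat1 (154 ± 13.3), Gas5 (110 ± 43.2), Snhg12 (97.6 ± 23.6), Snhg3 (44.4 ± 26.6), Neat1 (30.0 ± 3.39) and Airn (0.0233 ± 0.0404). Snhg1 lay above Malat1 and Snhg12 above Snhg3 in every library, while Malat1 and Gas5, Gas5 and Snhg12, and Snhg3 and Neat1 overlapped. At 96 h Snhg1 (280 ± 44.2 TPM) and Malat1 (269 ± 24.2 TPM) overlapped, followed by Snhg12 (61.2 ± 1.93), Gas5 (51.3 ± 5.09), Neat1 (43.7 ± 7.59), Snhg3 (21.9 ± 4.97) and Airn (7.21 ± 1.3). Neat1 lay above Snhg3 in every library at 96 h. In the nucleus at 0 h Snhg1 was at 419 ± 77.5 TPM, Malat1 at 242 ± 91.1 TPM, Gas5 at 151 ± 48.1 TPM, Snhg12 at 141 ± 22.8 TPM, Neat1 at 68.2 ± 13.6 TPM and Snhg3 at 46.9 ± 17.1 TPM. In the nucleus at 96 h Malat1 (359 ± 113 TPM) had a higher mean than Snhg1 (264 ± 49.6 TPM) with overlapping ranges, and Airn (23.1 ± 19.4 TPM) overlapped Snhg3 (24.7 ± 13.5 TPM). The TPM of Snhg3 rests on a mean effective length of 118 bases at 0 h in the cytoplasm and is uncertain for that reason.

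The members fell into groups by the course of log2(CPM + 1) over the 48 fraction libraries, a description in which all genes share the same libraries and times. Among 8141 genes with a mean of at least 10 CPM, the gene most like Gas5 was Snhg1 (Pearson r = 0.946), followed by Eif4a2 (0.92) and Snhg12 (0.911), and the gene most like Snhg12 was Zfas1 (0.923). Neat1 was most like Meg3 (0.916), Mirg (0.865) and Rian (0.844), and reached 0.764 with Malat1 but 0.185 with Gas5. Malat1 was most like Ttc14 (0.878), Rian (0.874) and Ccnl1 (0.825). Airn was most like Acta2 (0.939), the smooth muscle actin, Flt1 (0.938), a receptor of vascular endothelial growth factor, and Lbh (0.933). Snhg3, with few counts, was most like 1110038B12Rik (0.808).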

How the data were processed

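Per the submitters' processing notes, reads of the fractions and of total RNA run 3 were trimmed with Trimmomatic 0.38, aligned to mm10 (Ensembl release 93) with STAR 2.6.1a and quantified per gene with RSEM 1.3.1, and reads of runs 1 and 2 and of the sorted cells went through Bowtie2 2.2.6 and RSEM 1.2.28. The authors deposited RSEM expected counts, which were rounded to whole numbers here, RSEM TPM values and the effective length of each gene in bases. The fraction tables used here list no genes of chromosomes 7, 8, 9, X, Y and MT, which were not analysed in them. Library sizes were scaled by TMM, over the 48 fraction libraries together for the printed CPM, so a change of the total RNA per cell is not seen.

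Genes with a mean count above 10 in the fitted libraries were tested with edgeR 4.0.16 in R 4.3.3 (quasi-likelihood, Benjamini-Hochberg over all genes tested, threshold 0.05): each time point against 0 h within a fraction, nuclear against cytoplasmic RNA at each time and as a mean, the interaction of both, and total RNA at 96 h against 0 h. SE is the log2 change divided by the root of the F value. Sorted libraries, with 1 sample a group, were compared by exact Poisson intervals. Alternatives were DESeq2 1.42.0, DESeq2 size factors, no filter, a mean count above 50, a replicate block, a shared spread and leaving out each replicate, and, chosen after seeing the data, the deposited TPM and total RNA without the near-equal run 1 libraries. edgeR's test was also tried on simulated counts for the changes by 96 h in each fraction and in total RNA. The mean difference between the fractions was simulated too, and the other contrasts and DESeq2 were not.

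Replicates are differentiation runs, and the labels give the nuclear and cytoplasmic library of a lysate the same run and time, which is where the pairing comes from. Deviations from the group means correlated between the fractions of a lysate by -0.182 to 0.217 over genes. Besides the 7 members, only genes of lists of related RNAs, binding proteins, neighbours and cell type markers are named, up to 4 a list by lowest p (neighbours where they bear on a member), and the 3 genes most like each member by r over 48 libraries. Some genes that these rules name are not reported here. The members and the lists were chosen with earlier results of these data known. Figures were drawn with matplotlib 3.10.9. Small RNA and miRNA transfection samples of the series were not analysed here.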

Additional observations from a re-analysis of the deposited data

Results flagged for a closer look

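The change of Malat1 from 0 h differed in sign between the fractions in every run at 6 h and at 12 h. At 6 h the cytoplasmic libraries went from 317, 378 and 371 CPM to 414, 547 and 544 CPM and the nuclear ones from 666, 585 and 768 CPM to 475, 506 and 552 CPM, and the nuclear minus the cytoplasmic change was -0.90 on the log2 scale (edgeR adjusted p = 0.769). At 12 h the cytoplasmic libraries were at 350, 475 and 442 CPM and the nuclear ones at 377, 375 and 446 CPM, and the difference of the changes was -1.0 (adjusted p = 0.503). With no filter on low counts the adjusted p was 8.5e-05 at 6 h and 1.04e-06 at 12 h, and the cause of that change was not tested. At 0 h the nuclear to cytoplasmic ratio of Malat1 was 2.1, 1.55 and 2.07 in runs 5, 6 and 7, and these 0 h libraries are shared by both comparisons.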

How the results depend on the processing

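Of 447 values of the members under the alternatives, 379 kept their direction and their side of the threshold (or moved by less than 1 SD where there was no test), 31 kept the direction but lost the threshold, 8 passed it only there, 14 moved and 15 changed sign. The declines of Gas5, Snhg1 and Snhg12 by 96 h kept their sign and their call under all count-based alternatives in both fractions, and shrank on the TPM scale, most for cytoplasmic Snhg1 (log2 -0.24). The rise of nuclear Airn kept its call under those in which it was tested, which leaves out the mean count above 50. Some values changed sign. For nuclear change by 96 h these were Neat1 (-0.08 to 0.07 over left-out replicates, 0.07 without run 7) and Malat1 with DESeq2, with its size factors and with a mean count above 50 (0.01 each), 0.05 and 0.04 without run 5 and run 7, and -0.11 without run 6. For the nuclear to cytoplasmic difference they were the mean of Snhg3 (-0.02 to 1.02 over left-out replicates), at 0 h Snhg3 with the lysate as replicate block (0.09) and over left-out replicates (-0.68 to 0.53) and Airn (-2.16 to 2.13), and at 48 h Airn (-1.42 to 2.39) and Snhg1 (-0.02 to 0.77). The difference of Airn's change between the fractions ranged from -1.23 to 3.49, and that of total Malat1 from -0.58 to 1.65. The cause of these changes was not tested beyond the samples or genes left out.

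Genes called at 0 h between the fractions numbered 430, and 660 with DESeq2. Those called for a different change at 96 h numbered 0, and 4 with DESeq2 or 71 with no filter on low counts. In total RNA 4682 genes were called, and 7437 with the run as replicate block or 7241 with all 14 libraries. With the lysate as replicate block 2 members instead of 4 were called at 48 h, and with the run as block 5 members were called at 96 h in the cytoplasm (8118 genes) and 4 in the nucleus (6925 genes). The block changed no other call of a member at 96 h beyond those given beside the results. Leaving out 1 replicate gave 6311 to 8135 genes and 3 to 4 members in the cytoplasm at 96 h (3 without run 6), 5124 to 5916 genes and 4 members in the nucleus, 1390 to 3895 genes and 3 to 6 members for the mean difference between the fractions (1390 without run 6, 3 without run 7), 20 to 233 genes and 0 to 2 members at 0 h (0 without run 6), 265 to 904 genes and 0 to 5 members at 48 h (0 without run 7), 0 genes and 0 members for a different change, and 2512 to 4362 genes and 1 to 2 members in total RNA. Without a filter Airn was tested and called in the cytoplasm too, giving 6 members.

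Depth limits Snhg3, with at most 10.2 CPM in the fractions, and Airn before 72 h, and poly(A) selection limits Malat1 and Neat1 to the molecules it retained.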

Other observations

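At 6 h, when 17.1% of all genes fell in the cytoplasm, 1 of the 18 protein-coding snoRNA hosts tested fell and 1 rose (median log2 change -0.05), and 1 of 8 other noncoding hosts fell (median -0.32). Gas5, whose call was lost without run 6, and Snhg1 fell, while Snhg3 and Snhg12 did not pass the test. By 24 h 13 of the 18 protein-coding hosts had fallen (median -0.40), beside 22.6% of all genes, and by 96 h 17 had. In the nucleus 0, 5 and 8 of the 18 fell at those times. The difference in timing between the noncoding and the protein-coding hosts was not tested.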
